A study of Mus musculus with 36 samples.

Results

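The 9 contractile and SRF target genes described here were *Srf*, *Acta2*, *Tagln*, *Cnn1*, *Cnn2*, *Tpm1*, *Myl9*, *Vcl* and *Ankrd1*, taken by gene name from the deposited tables of counts and of TPM (length-scaled transcript abundance). All 9 were among the 53421 genes of the count table and the 52416 genes of the TPM table, and all 9 passed the filter on low counts in every comparison, with between 91 and 109811 reads per library. The samples were a fibroblast-like chondrocyte line from mouse, conditionally immortalised, transfected with a pool of non-targeting siRNA (NT) or with a pool of siRNA against *Ift88* (IFT88siRNA). IL-1β, an inflammatory cytokine, was added to both siRNA groups at 10 ng/ml for 1, 2, 4, 8 or 24 h, and 0 h was harvested in medium alone, which gave 12 conditions of 3 replicates, 36 poly(A) RNA libraries in all. All groups share the cell line and the transfection, and the knockdown was partial. Every time with IL-1β was compared with the same 0 h libraries, so IL-1β and the time in culture after its addition cannot be told apart.

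SRF, serum response factor, is a transcription factor that binds a short element called the CArG box in front of cytoskeletal and early response genes. Its partners decide which genes respond: the ternary complex factors of the ELK family act downstream of MAP kinases, whereas the myocardin-related factors MRTF-A and MRTF-B are held in the cytoplasm by unpolymerised actin and are released when actin assembles into filaments. Contractile genes such as those for smooth muscle actin, calponin and transgelin are known targets of the second branch, and in cartilage cells their RNA accompanies a spread, fibroblast-like shape.

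Total counts on genes ran from 19337022 to 38304127 per library. *Ift88*, which encodes a carrier of intraflagellar transport in the primary cilium, had CPM values (counts scaled to library size with TMM) of 9.17, 8.66 and 9.36 in the 3 NT libraries at 0 h and 2.59, 2.89 and 2.82 in the 3 IFT88siRNA libraries. Across the 6 times its level in IFT88siRNA was 22.9% to 36.1% of that in NT. Cartilage markers were low: the summed level of 10 chondrocyte genes was 30.5 to 161 TPM per NT library, with *Acan*, *Col9a1* and *Matn1* under 1 TPM in every library, whereas 8 fibroblast and mesenchymal genes summed to 2542 to 6216 TPM per NT library. Of the 10 chondrocyte genes 6 averaged at least 1 TPM, among them *Sox9* and *Col2a1*. Of 7 further smooth muscle markers, the defining genes *Myh11*, *Des* and *Myocd* were under 1 TPM in every library. The other 4 averaged at least 1 TPM, with *Smtn* at 63.3 to 211, *Actg2* at 13.0 to 91.6, *Lmod1* at 1.53 to 21.2 and *Synpo2* at 0.988 to 7.34 TPM per library. The 7 together summed to 85.4 to 303 TPM per NT library and 83.1 to 278 TPM per IFT88siRNA library. The summed lists for striated muscle, macrophages, endothelium and epithelium were at most 29.3, 14.99, 1.78 and 9.38 TPM per library, and *Myod1*, *Ptprc*, *Pecam1* and *Epcam* were under 1 TPM throughout. The highest single genes of these lists were *Tnnt2*, *Cd68*, *Tek* and *Cdh1*, at up to 28.4, 12.3, 1.18 and 6.96 TPM.

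Levels can be compared between genes only per length, as TPM. In NT at 0 h *Acta2*, smooth muscle α-actin, was the most abundant member at 1502 ± 27.2 TPM (mean ± SD, n = 3), followed by *Tpm1*, which encodes tropomyosin 1 that lies along the actin filament, at 1173 ± 37.2 TPM. *Cnn2*, the broadly expressed calponin 2, had 461 ± 7.50 TPM, *Tagln*, transgelin or SM22α, had 361 ± 16.2 TPM, and *Myl9*, a regulatory light chain of myosin II, had 314 ± 9.06 TPM. The focal adhesion protein vinculin, *Vcl*, had 251 ± 6.58 TPM. The regulator *Srf* was lower at 72.3 ± 3.31 TPM, and the smooth muscle calponin *Cnn1* and the ankyrin repeat protein *Ankrd1*, a nuclear and sarcomeric stress protein, were lowest at 15.5 ± 1.08 and 5.50 ± 0.366 TPM. The ranges of the 3 libraries did not overlap between neighbours in this order.

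The 9 genes lie at separate loci of GRCm38, and *Tagln*, *Cnn1* and *Tpm1* share chromosome 9. On chromosome 9 *Tagln* (45929619 to 45936058, minus strand) shares 67.9% of its 1988 exonic bases with genes on the other strand, 1241 bases with the antisense gene *Gm48529* and 108 with *Pcsk7*. Its ratio of mean TPM to mean CPM was 25.5, against 0.433 to 1.75 for the other 8 members, and it averaged 389.9 reads per library, and whether these cover only the unshared part of the gene was not tested. *Vcl* on chromosome 14 (20929398 to 21033676, plus strand) shares 25.5% of its 8191 exonic bases with *Ap3m1*, also on the other strand. For both genes TPM values are therefore given beside the counts at some of the times. None of the other 7 members shares an exonic base with another gene in the annotation. *Srf* lies at chr17:46548329-46556175, minus strand. *Acta2* and *Ankrd1* are both on the minus strand of chromosome 19, at chr19:34241090-34255590 and chr19:36111961-36120099. *Cnn1* (chr9:22099216-22109630), *Cnn2* (chr10:79988584-79996062) and *Myl9* (chr2:156775420-156781658) are on the plus strand, and *Tpm1* (chr9:67022590-67049406) is on the minus strand.

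Promoter sequence is given because the CArG box is the element through which SRF acts, and the transcript values do not depend on it. RefSeq start sites (GRCm38.p6) were found for 8 of the 9 members, *Tagln* not being matched, and the 250 bases before each start were searched on both strands. A full CArG box, 2 C followed by 6 bases that are each A or T and 2 G, was present in the windows of *Srf*, *Cnn2*, *Myl9* and *Vcl*, 4 of 8, and in 1.47% of all 32851 promoter windows. *Srf* held 2 of them, as did only 6 windows in all (0.0183%). A CArG-like sequence, 1 base away from that pattern, was present in *Acta2* (2 matches), *Tpm1* (2), *Myl9* and *Srf*, but also in 17.5% of all windows. The TEAD motif CATTCC, read by the DNA-binding partners of YAP, was found in *Acta2*, *Tpm1*, *Vcl* and *Ankrd1*, the last with 2 matches, and in 12.6% of all windows. A loose kappaB motif (GGG, a purine, 3 or 4 bases of any kind, CC) was in 7 of 8 windows and in 39.7% of all. A kappaB match overlapped a CArG box by 2 bases in *Srf* and in *Vcl*.

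The 6 stretches printed here read 5′ to 3′ on the strand of the gene, with CArG and CArG-like matches in capitals, or for *Ankrd1*, which had neither, the TEAD matches (written here as the reverse complement GGAATG). They run from 15 bases before the first match to 15 bases after the last. The *Srf* stretch (chr17:46556177-46556259, minus strand) holds both full boxes and then a CArG-like match. *Acta2* (chr19:34255383-34255472, minus strand) holds 2 CArG-like matches, and *Myl9* (chr2:156775288-156775389, plus strand) a full box and then a CArG-like match. *Cnn2* (chr10:79988529-79988568, plus strand) and *Vcl* (chr14:20929156-20929195, plus strand) hold the same 10-base box, *Cnn2* at 56 to 47 bases before its start and *Vcl* at 227 to 218. *Ankrd1* is at chr19:36119947-36120069, minus strand. The gene positions given above come from another annotation. The RefSeq starts of *Srf*, *Acta2*, *Cnn1*, *Cnn2*, *Myl9*, *Tpm1* and *Ankrd1* lie inside them, and that of *Vcl* is at the same base. Of the printed stretches, only those of *Acta2* and *Ankrd1* lie inside those positions too. The window of *Cnn1* held no CArG, CArG-like or TEAD match, which says only that these letters are not in these 250 bases.
Srf: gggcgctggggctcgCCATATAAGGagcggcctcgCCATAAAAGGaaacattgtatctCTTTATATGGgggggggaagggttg
Acta2: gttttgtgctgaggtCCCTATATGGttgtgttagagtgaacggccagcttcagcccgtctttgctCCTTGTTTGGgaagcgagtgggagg
Myl9: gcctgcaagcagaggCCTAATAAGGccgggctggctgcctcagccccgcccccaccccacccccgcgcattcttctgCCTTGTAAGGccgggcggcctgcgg
Cnn2: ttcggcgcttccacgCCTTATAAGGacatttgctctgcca
Vcl: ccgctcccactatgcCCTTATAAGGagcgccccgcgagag
Ankrd1: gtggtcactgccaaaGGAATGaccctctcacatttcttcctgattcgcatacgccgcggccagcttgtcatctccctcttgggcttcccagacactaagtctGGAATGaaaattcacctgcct

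**Figure D1:**
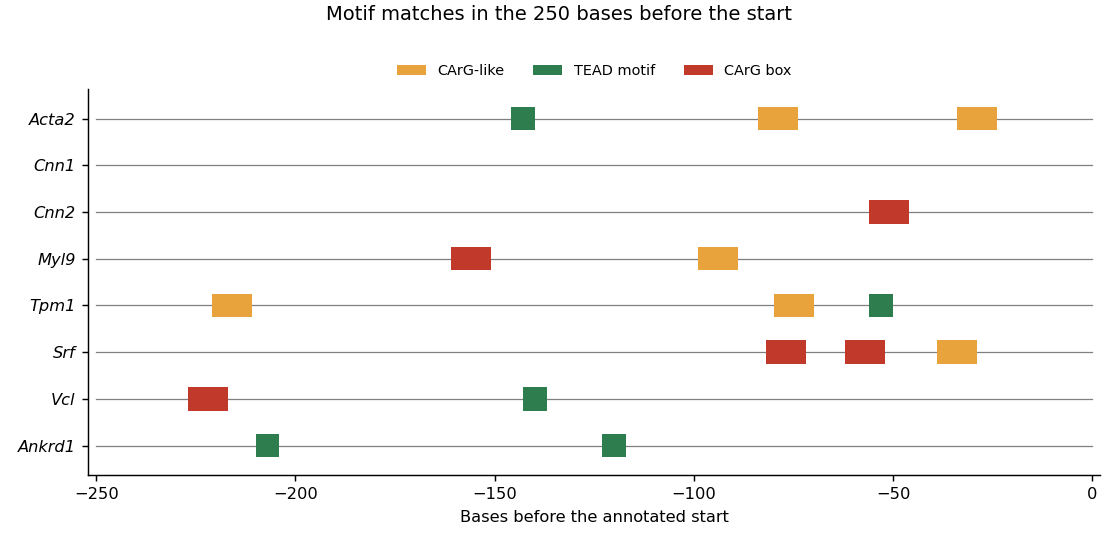
Matches to the CArG box (red), CArG-like sequence (orange) and TEAD motif (green) in the 250 bases before the RefSeq start of 8 members, with bases before the start on the x axis and 1 gene per row. The 2 full boxes of *Srf* lie at 82 to 53 bases before the start, and the row of *Cnn1* is empty.

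In NT 8 of the 9 members rose within 1 or 2 h of IL-1β, 7 were called higher at 4 h, and 7 were called lower than at 0 h after 24 h. A gene was called where the Benjamini-Hochberg adjusted p from edgeR's quasi-likelihood F-test was under 0.05 and the fold change over 1.5. With the 5 times tested together, all 9 members were called, as were 50.0% of the 16048 genes tested. At 1 h 5 members had risen, against 9.22% of all genes: *Srf*, *Acta2*, *Cnn1*, *Tpm1* and *Ankrd1*. At 2 h 8 had risen, all but *Cnn2* (13.0% of all genes), and at 4 h 7, all but *Cnn2* and *Myl9* (16.3%). By 8 h 3 were still called higher, *Acta2*, *Tagln* and *Ankrd1* (11.8%). At 24 h none was called higher with edgeR (6.61% of all genes), and none with DESeq2 or with limma on TPM. *Ankrd1* had the only log2 change above 0 at that time, while 7 members had fallen, all but *Srf* and *Ankrd1* (9.71% of all genes). The median log2 change of the 9 was 0.96 at 1 h, 1.58 at 2 h, 1.21 at 4 h, 0.33 at 8 h and -0.90 at 24 h, whereas the median over all genes tested stayed between -0.02 and -0.01. The summed levels of the marker lists were also lower at 24 h than at 0 h in NT (means of 31.4 against 85.1 TPM for chondrocyte, 2637 against 4902 for fibroblast and 87.2 against 171 for smooth muscle genes), and their part in the fall was not tested. In bulk RNA, fewer cells that express a gene and less of its RNA per cell cannot be told apart.

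**Figure D2:**
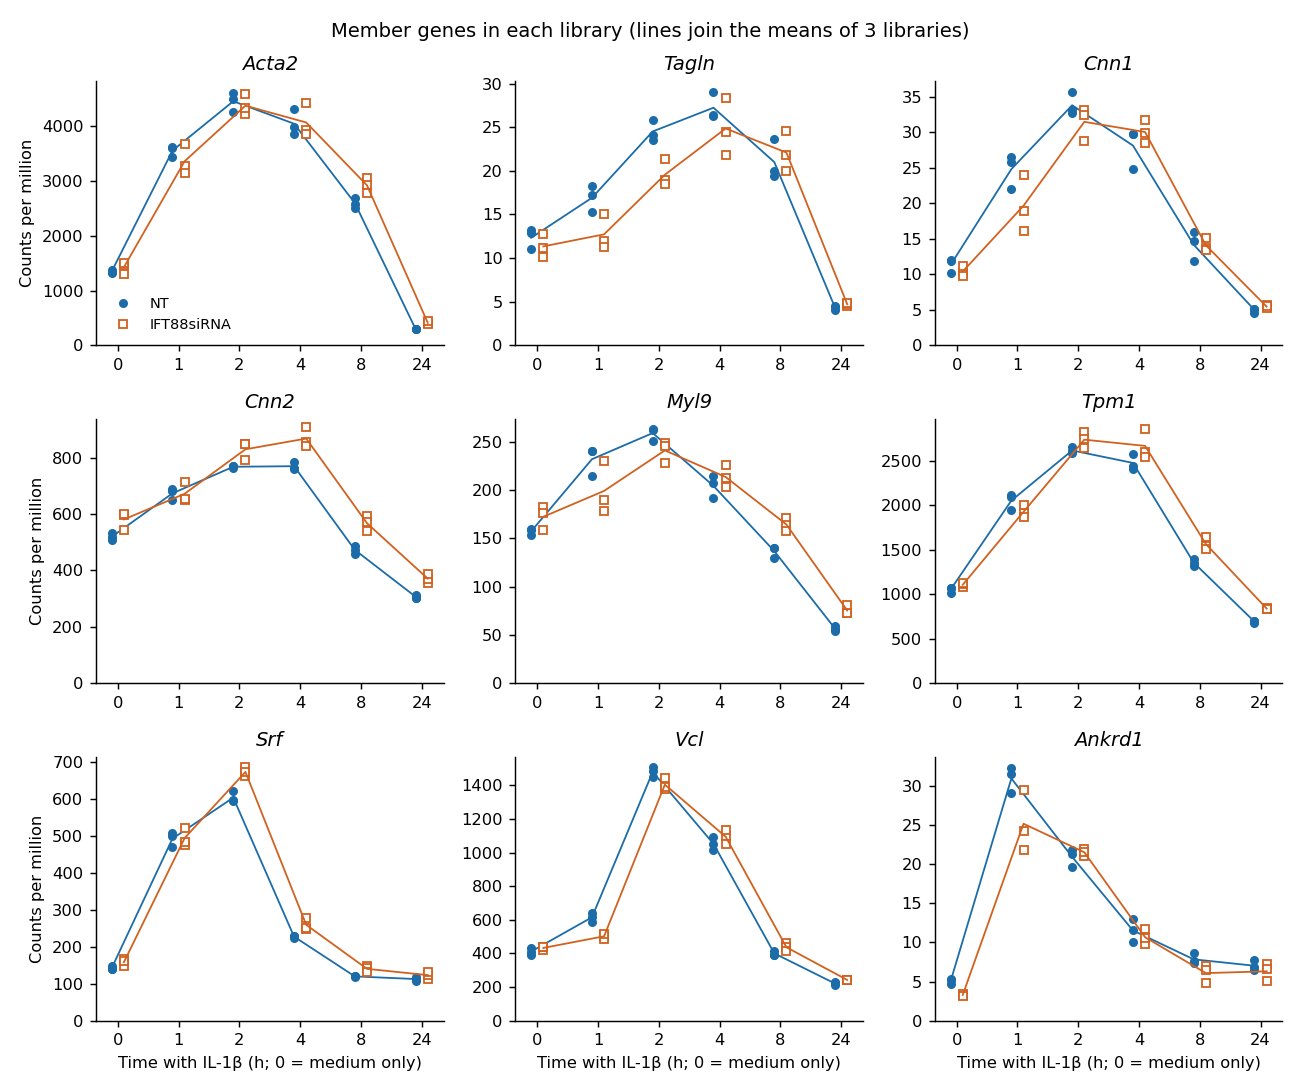
CPM of each member in each of the 36 libraries against time with IL-1β (h, 0 is medium only; the times are evenly spaced on the axis), with filled circles for NT, open squares for IFT88siRNA and lines through the means of 3 libraries. *Srf* and *Vcl* have sharp peaks at 2 h, and the NT mean of *Acta2* is 4458 CPM at 2 h and 296 CPM at 24 h. *Ankrd1* has its highest mean at 1 h and *Tagln* at 4 h. In IFT88siRNA these did not pass a test against 2 h for *Ankrd1* (edgeR adjusted p = 0.118) or 8 h for *Tagln* (edgeR adjusted p = 0.169).

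*Srf* itself was an early and brief responder. The 3 NT libraries had 139, 148 and 140.3 CPM at 0 h, 500.3, 470.1 and 509 at 1 h and 597, 621 and 594 at 2 h. Levels then dropped to 230.0, 224 and 230.0 CPM at 4 h and 120.1, 119 and 122 at 8 h. The libraries of these 5 times did not overlap. The rise was 3.45-fold at 1 h and 4.22-fold at 2 h (log2 change 2.08 ± 0.043 SE, edgeR adjusted p = 2.74e-22), and the level at 2 h was above that at 1 h (edgeR adjusted p = 2.33e-06). At 8 h and 24 h *Srf* was at 84.5% and 79.3% of its 0 h level, below the fold needed for a call, with edgeR adjusted p = 3.33e-05 and 4.54e-07. The levels at 8 and 24 h did not pass a test against each other (edgeR adjusted p = 0.0833), although their ranges did not overlap. At 4 h the rise of 1.61-fold by counts was under the fold for a call on log2(TPM + 1), at 0.39 ± 0.044 (limma adjusted p = 1.77e-06).

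The actin gene *Acta2* had the deepest fall. It had 1320.1, 1344 and 1382 CPM in NT at 0 h, 4507, 4612 and 4256 at 2 h and 305, 292 and 290.2 at 24 h, without overlap. It was 2.63-fold higher at 1 h, 3.30-fold at 2 h, 3.02-fold at 4 h and still 1.93-fold at 8 h. At 24 h it was at 21.9% of the 0 h level (log2 change -2.19 ± 0.046, edgeR adjusted p = 5.92e-22). The order of its levels was 2, 4, 1, 8, 0 and 24 h, and each neighbour differed by edgeR (adjusted p at most 0.0141), although the ranges at 2 and 4 h overlapped.

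*Tagln*, an actin-binding protein of smooth muscle and fibroblasts, rose more slowly. Its NT libraries had 10.99, 12.8 and 13.2 CPM at 0 h, 29.1, 26.3 and 26.4 at 4 h and 4.41, 4.50 and 4.03 at 24 h, without overlap. On the TPM scale, the same libraries had 357, 348 and 379, then 714, 643 and 702, then 90.3, 93.4 and 91.8. By counts the change at 1 h was 0.45 ± 0.091 (log2, edgeR adjusted p = 0.000199) and under the fold for a call. It was 2.22-fold higher at 4 h, a level that did not pass a test against 2 h (edgeR adjusted p = 0.0864), and at 35.00% of the 0 h level at 24 h (log2 change -1.51 ± 0.11, edgeR adjusted p = 1.76e-11).

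The calponins, which bind actin and slow its sliding on myosin, differed in size of change. *Cnn1* had 11.96, 10.2 and 11.8 CPM in NT at 0 h, 32.7, 33.1 and 35.7 at 2 h and 5.16, 4.61 and 5.15 at 24 h. These ranges did not overlap, and the change was a rise of 2.98-fold (log2 change 1.58 ± 0.10, edgeR adjusted p = 5.48e-13) and a later level of 44.02% (edgeR adjusted p = 1.07e-08). *Cnn2* had 507, 517 and 534 CPM at 0 h, 787, 760.0 and 764 at 4 h and 303, 314 and 302 at 24 h. Its ranges did not overlap either, but its highest level was 1.49-fold that at 0 h (log2 change 0.58 ± 0.037), just under the threshold of 1.5, with edgeR adjusted p = 1.26e-12. On log2(TPM + 1) it was 0.31 ± 0.038 (limma adjusted p = 4.87e-06). At 24 h *Cnn2* had fallen to 59.03% of its 0 h level (edgeR adjusted p = 1.73e-14).

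Tropomyosin and the myosin light chain both had their highest means at 2 h and their lowest at 24 h, although for *Tpm1* the levels at 2 and 4 h did not pass a test against each other (edgeR adjusted p = 0.157). *Tpm1* had 1019, 1065 and 1074 CPM in NT at 0 h, 2660.0, 2585 and 2613 at 2 h and 694, 701 and 677 at 24 h. It rose 2.48-fold at 2 h (log2 change 1.31 ± 0.041, edgeR adjusted p = 1.03e-18) and was at 65.6% of the 0 h level at 24 h (log2 change -0.61 ± 0.041, edgeR adjusted p = 5.8e-12). *Myl9*, the light chain whose phosphorylation starts contraction of myosin II, had 154, 158 and 159.7 CPM at 0 h, 264, 263 and 251 at 2 h and 58.9, 54.1 and 56.3 at 24 h. Its rise at 2 h was 1.64-fold (log2 change 0.72 ± 0.049) and its level at 24 h 35.9% (log2 change -1.48 ± 0.052), with edgeR adjusted p = 6.56e-12 and 2.06e-17. Neither gene had overlapping ranges at these times. On the log2 scale *Myl9* fell further than it rose, whereas *Tpm1* did the reverse. On log2(TPM + 1) with limma the 2 h difference of *Myl9* was 0.44 (adjusted p = 2.12e-06), under the fold for a call.

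*Vcl* had 411, 431 and 393 CPM in NT at 0 h, 614, 588 and 642 at 1 h, 1506, 1484 and 1447 at 2 h and 228, 222 and 214 at 24 h. Nothing overlapped among these times. Vinculin links actin filaments to integrin adhesions, and its RNA was 3.58-fold higher at 2 h (log2 change 1.84 ± 0.045, edgeR adjusted p = 8.94e-21). It was back at 97.6% of the 0 h level by 8 h (edgeR adjusted p = 0.535) and at 53.8% by 24 h (edgeR adjusted p = 2.13e-14). At 1 h the call depended on the tool: the log2 change was 0.58 ± 0.044 by edgeR, just under the fold for a call, 0.59 ± 0.046 by DESeq2 on the same counts (adjusted p = 8.93e-37, called), and 0.84 ± 0.048 on log2(TPM + 1) with limma (adjusted p = 2.87e-09). The TPM values behind this were 248, 259 and 247 at 0 h and 439, 423 and 490.3 at 1 h.

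*Ankrd1*, a target of both SRF and YAP in other cells, was the fastest member and the only one above its 0 h level at 24 h. The NT libraries had 5.16, 4.70 and 5.28 CPM at 0 h, 29.00, 31.5 and 32.2 at 1 h and 21.2, 21.8 and 19.6 at 2 h, and 7.74, 6.47 and 6.84 at 24 h. No range overlapped with that at 0 h. It rose 6.12-fold at 1 h (log2 change 2.61 ± 0.094, edgeR adjusted p = 2.93e-17) and declined at each later time to 8 h. At 24 h the log2 change was 0.48 ± 0.11 (edgeR adjusted p = 0.000912), under the fold for a call, and the levels at 8 and 24 h overlapped (edgeR adjusted p = 0.217).

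Between 4 and 24 h the members left their peaks at different rates in NT. At 8 h *Acta2* still had 2598 ± 89.5 CPM (mean ± SD, n = 3) and *Tagln* 21.02 ± 2.34, both above their 0 h means of 1349 ± 31.2 and 12.3 ± 1.17. *Vcl*, at 1052 ± 38.8 CPM at 4 h, was at 401 ± 14.3 at 8 h, beside 412 ± 18.7 at 0 h. *Myl9*, *Cnn2* and *Srf* had already passed below 0 h at 8 h, with log2 changes of -0.20 ± 0.050, -0.13 ± 0.037 and -0.24 ± 0.043, none past the fold for a call. *Tpm1* and *Cnn1* were between, at 0.37 ± 0.040 and 0.33 ± 0.10, with edgeR adjusted p = 3.11e-08 and 0.0103. *Tagln* and *Acta2* were thus the filament genes that remained called at 8 h.

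**Figure D3:**
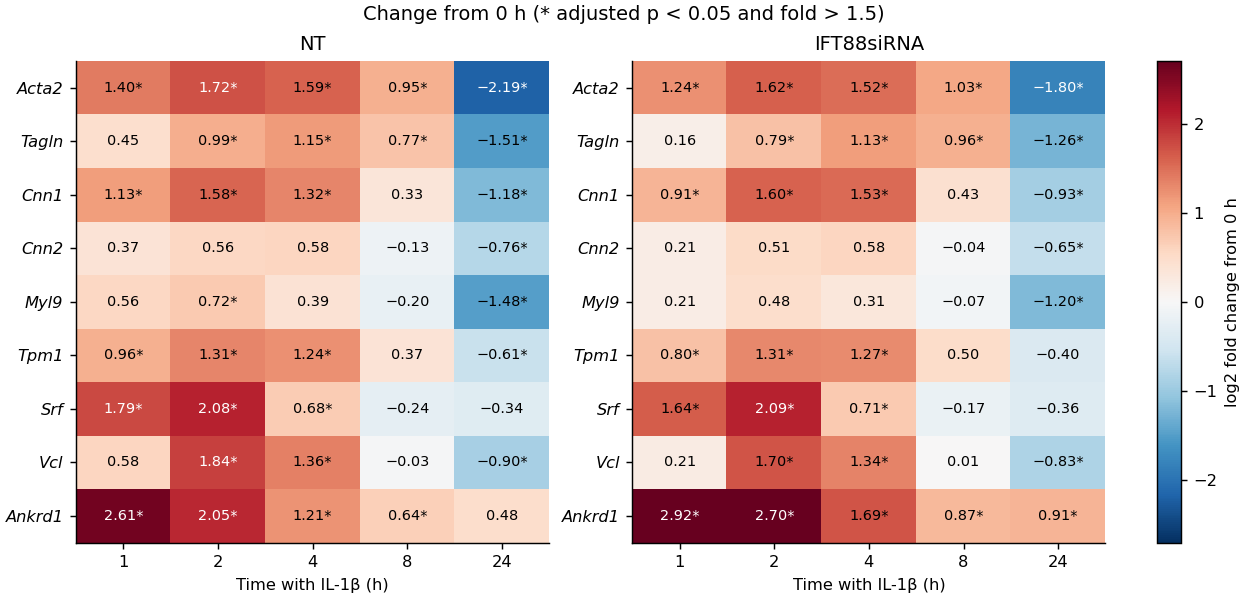
Log2 fold change from 0 h of the 9 members at 5 times with IL-1β in NT (left) and IFT88siRNA (right), from red (higher) to blue (lower), with the value in each cell and a star where the adjusted p was under 0.05 and the fold over 1.5. Each member is above 0 at 1, 2 and 4 h in both groups, and 7 of 9 are starred as lower at 24 h in NT.

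Cells with *Ift88* siRNA were followed through the same times against their own 0 h libraries. All 9 members were called over the 5 times together (48.2% of 16129 genes). At 1 h 5 were called higher, *Srf*, *Acta2*, *Cnn1*, *Tpm1* and *Ankrd1* (6.82% of all genes), and the number was 7 at 2 h (12.4%), 7 at 4 h (16.0%) and 3 at 8 h (10.5%). At 24 h *Ankrd1* was called higher, at 1.88-fold (6.36% of all genes), and 6 members lower (7.87%), *Acta2*, *Tagln*, *Cnn1*, *Cnn2*, *Myl9* and *Vcl*. *Acta2* libraries had 1306, 1458 and 1509.9 CPM at 0 h, 4586, 4217 and 4328 at 2 h and 398, 394 and 438 at 24 h, that is 3.07-fold higher and then 28.8% of the 0 h level. *Srf* had 147, 166 and 162 CPM at 0 h and 686, 662 and 672 at 2 h, 4.25-fold higher, without overlap. *Tpm1* at 24 h was at 75.8% of the 0 h level (edgeR adjusted p = 5.81e-07), which is less than a 1.5-fold change. A call in one siRNA group and not in the other does not show that the groups differ.

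In IFT88siRNA the adhesion gene and *Ankrd1* also peaked early. *Vcl* had 422, 441 and 436 CPM at 0 h, 503, 489 and 515 at 1 h, 1443, 1378 and 1389.6 at 2 h and 242, 244 and 242 at 24 h. At 1 h it was at 1.16-fold the 0 h level and not called, and at 2 h the rise was 3.24-fold (edgeR adjusted p = 1.39e-19). In TPM the *Vcl* libraries had 249, 241 and 247 at 0 h and 305, 293 and 333 at 1 h. *Ankrd1* had 3.31, 3.38 and 3.21 CPM at 0 h, 24.2, 21.8 and 29.5 at 1 h, 20.97, 21.9 and 21.6 at 2 h and 7.21, 5.09 and 6.63 at 24 h. No later range overlapped with 0 h, and the ratio was 7.59-fold at 1 h (log2 change 2.92 ± 0.14, edgeR adjusted p = 9.71e-15). 

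Among the filament genes of IFT88siRNA, *Tagln* had 11.1, 10.2 and 12.7 CPM at 0 h, 21.8, 28.3 and 24.4 at 4 h and 4.55, 4.75 and 4.82 at 24 h. On the TPM scale, the same libraries had 296, 305 and 313, then 596, 675 and 648, then 104, 103 and 106. At 1 h *Tagln* had 268, 263 and 356 TPM, a range that overlapped with 0 h. *Cnn1* had 10.2, 9.75 and 11.2 CPM at 0 h, 33.2, 28.8 and 32.5 at 2 h and 5.19, 5.64 and 5.50 at 24 h. In both genes the 3 ranges were separate. *Myl9* had 158, 182 and 177 CPM at 0 h and 249, 228 and 246 at 2 h, 1.40-fold apart and under the fold for a call (log2 change 0.48 ± 0.074, edgeR adjusted p = 4.92e-06). *Cnn2* had 545, 596 and 602 CPM at 0 h, 856, 908 and 841 at 4 h and 355, 369 and 388 at 24 h, and its log2 change at 4 h (0.58 ± 0.054) was just under the fold for a call. *Tpm1* had 1084, 1110.2 and 1125 CPM at 0 h and 2827, 2650.0 and 2745 at 2 h, 2.47-fold higher without overlap.

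The direct comparison of the siRNA groups asks whether loss of *Ift88* moved these genes, before or during IL-1β. Compared with NT at the same time, differences were small: over the 6 times tested together 1 member was called (5.19% of 16710 genes), and 8 of 9, all but *Cnn1*, had an adjusted p under 0.05 with no fold required (31.8% of genes). That 1 member was *Ankrd1*, which was lower in IFT88siRNA before IL-1β. Its libraries had 5.16, 4.70 and 5.28 CPM in NT and 3.31, 3.38 and 3.21 in IFT88siRNA at 0 h, with no overlap, and 65.4% of the NT level (log2 difference -0.61 ± 0.12, edgeR adjusted p = 0.000845). It was the 1 member called at 0 h (2.23% of 15274 genes). At 1 h it was at 80.7% of NT (edgeR adjusted p = 0.0197), and at 2 h at 103% (edgeR adjusted p = 0.851). The call at 0 h was lost by size without replicate 3 of NT at 0 h (log2 difference -0.58, edgeR adjusted p = 0.00749) and without replicate 3 of both groups (-0.56, edgeR adjusted p = 0.0283). On log2(TPM + 1) with limma the difference was -0.51 (adjusted p = 0.0295), under the fold for a call. With limma and a pseudocount of 0.1 in place of 1 the call was kept. Over all its alternatives the adjusted p at 0 h lay between 0.000166 and 0.0965, and the joint adjusted p rose to 0.0638 without replicate 1 of every condition.

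No member was called by edgeR or DESeq2 at 1 h (2.66% of genes), 2 h (0.496%), 4 h (0.432%), 8 h (0.692%) or 24 h (1.15%), and by limma on log2(TPM + 1) none at any time. At an unadjusted p under 0.05 from edgeR the number of members was 6 at 1 h (32.4% of genes), 4 at 2 h (17.2%), 2 at 4 h (17.9%), 6 at 8 h (21.1%) and 6 at 24 h (22.2%). With an adjusted p under 0.05 and no fold required there were 3 members at 0 h (19.5% of genes), 5 at 1 h (19.0%), 1 at 2 h (2.76%), 2 at 4 h (3.85%), 3 at 8 h (4.25%) and 4 at 24 h (8.66%). At 1 h the 5 were *Vcl*, *Tagln*, *Cnn1*, *Myl9* and *Ankrd1*, and each was lower in IFT88siRNA. The CPM ranges of the siRNA groups overlapped for *Cnn1*, *Myl9* and *Ankrd1* but not for *Vcl* and *Tagln*. DESeq2 gave 3 of the 5, *Cnn1* and *Myl9* having adjusted p = 0.204 and 0.224 there, and it gave 5 members at 8 h and 5 at 24 h. All 9 members had a log2 difference below 0 at 1 h, with a median of -0.23, where 50.1% of all genes were above 0. However, *Srf* and *Cnn2* were near 0 at -0.0028 and -0.010, and both changed sign among the alternatives. In the fit of all 36 libraries 1 member was above 0 at 1 h. At 24 h the 4 were *Acta2*, *Myl9*, *Cnn2* and *Tpm1*, and each was higher, with 8 of 9 members above 0 and a median of 0.13. *Cnn2* and *Srf* were higher at 0, 4 and 8 h, by 1.12-fold and 1.13-fold at 4 h.

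*Vcl* showed the clearest difference at 1 h. Its libraries had 614, 588 and 642 CPM in NT and 503, 489 and 515 in IFT88siRNA, without overlap. The log2 difference was -0.30 ± 0.040 (edgeR adjusted p = 0.000127), or 81.3% of NT. In TPM the same libraries had 439, 423 and 490.3 and 305, 293 and 333, a difference of -0.54 ± 0.070 on log2(TPM + 1) (limma adjusted p = 0.0195). Over its alternatives this adjusted p ran from 3.68e-11 to 0.0608. *Tagln* at 1 h had 17.2, 15.3 and 18.2 CPM in NT and 11.9, 11.3 and 15.01 in IFT88siRNA, at 74.9% of NT (edgeR adjusted p = 0.00954, limma on TPM 0.0614), again without overlap. In TPM these libraries had 421, 397 and 449 and 268, 263 and 356. At 0 h *Tagln* had 357, 348 and 379 TPM in NT and 296, 305 and 313 in IFT88siRNA, without overlap, whereas its CPM ranges overlapped. Its log2 difference at 0 h lay between -0.25 and -0.017 over its alternatives.

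At 24 h *Acta2* was lower than at 0 h in both groups but less so in IFT88siRNA. The libraries had 305, 292 and 290.2 CPM in NT and 398, 394 and 438 in IFT88siRNA, 138% of NT (log2 difference 0.47 ± 0.051, edgeR adjusted p = 3.97e-05). *Myl9* had 58.9, 54.1 and 56.3 CPM in NT and 72.3, 72.4 and 81.02 in IFT88siRNA, 133% of NT (log2 difference 0.41 ± 0.054, edgeR adjusted p = 0.000194). In both genes each IFT88siRNA library was above each NT library. *Cnn2* and *Tpm1* were at 121% and 121% of NT, with edgeR adjusted p = 0.00237 and 0.00128. All 4 differences were below 1.5-fold. On log2(TPM + 1) the limma adjusted p was 0.00591 for *Acta2* and 0.0114 for *Myl9*.

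**Figure D4:**
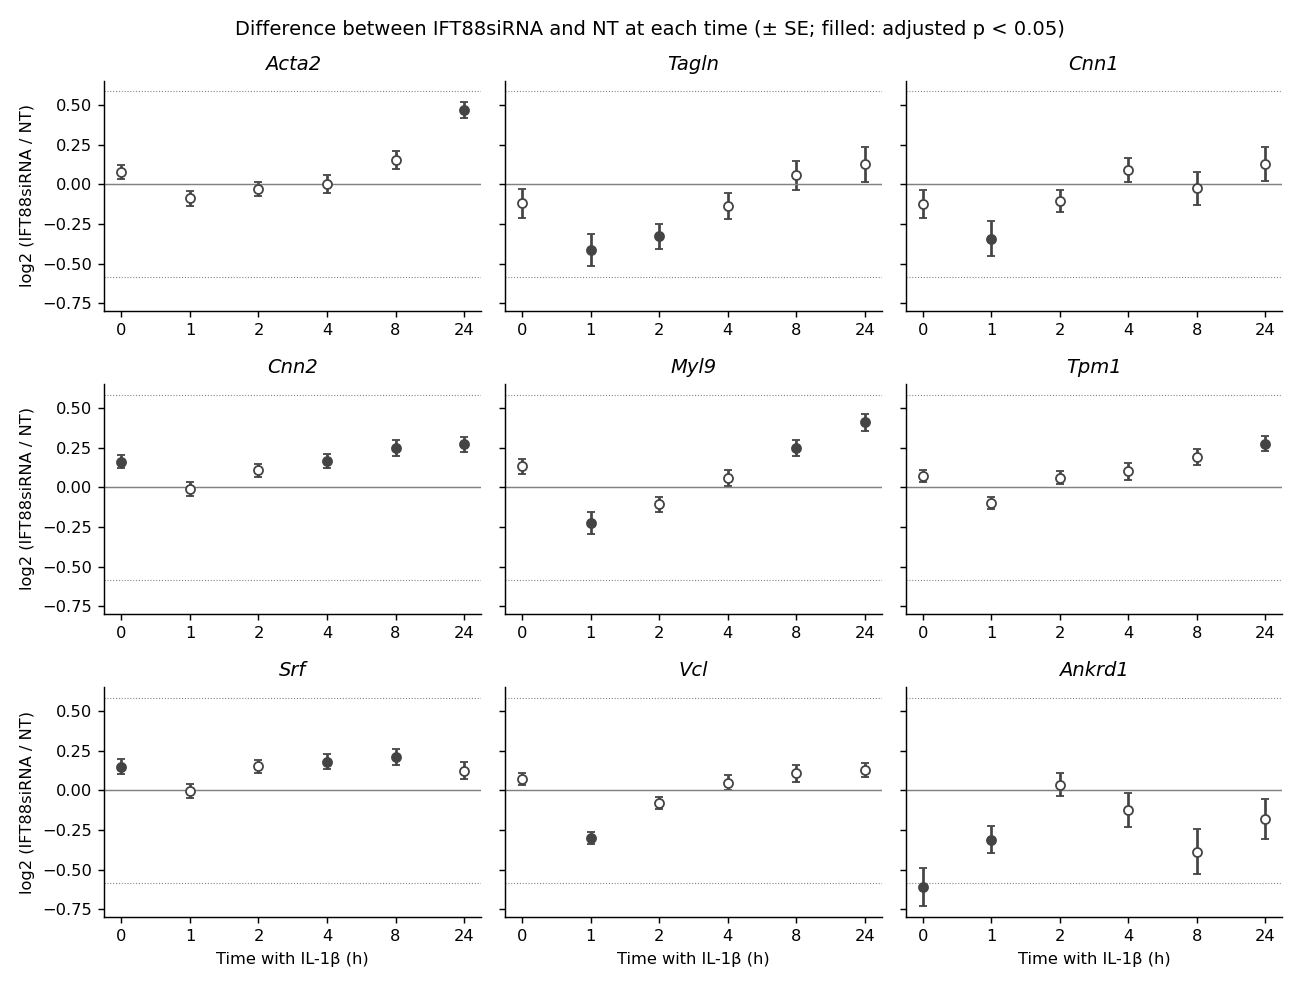
Log2 ratio of IFT88siRNA to NT at each time with IL-1β (h) for the 9 members, as the edgeR estimate ± SE from 3 libraries against 3, filled where the adjusted p was under 0.05, with dotted lines at a fold of 1.5. *Ankrd1* at 0 h is the only filled point past a dotted line, and *Acta2* and *Myl9* lie highest at 24 h.

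The size of the IL-1β response was then compared between the siRNA groups directly, as the difference of the changes from 0 h. No member passed the joint test over the 5 times with the fold required, by edgeR (1.20% of 16710 genes), DESeq2 or limma on TPM, and 8 had an unadjusted p under 0.05 by edgeR (16.8% of genes). The largest single difference was that of *Ankrd1* at 2 h, 0.65 ± 0.18 on the log2 scale (edgeR adjusted p = 0.0713), which DESeq2 called when that time was taken alone (0.66 ± 0.19, adjusted p = 0.0263) but not over the 5 times together (adjusted p = 0.092). The direct log2 difference of *Ankrd1* between IFT88siRNA and NT was -0.61 at 0 h and 0.04 at 2 h, so this term holds the gap at 0 h. Without the fold, 5 members had an adjusted p under 0.05 over the 5 times together (5.53% of genes): *Vcl* (3.98e-05), *Myl9* (0.000143), *Acta2* (0.000197), *Tpm1* (0.00163) and *Cnn2* (0.0288), all edgeR adjusted p. At 1 h the log2 difference in response was -0.36 ± 0.061 for *Vcl* and -0.35 ± 0.094 for *Myl9*, a smaller rise in IFT88siRNA. At 24 h it was 0.39 ± 0.084 for *Acta2* and 0.21 ± 0.063 for *Tpm1*, a smaller fall. Taken alone, these terms had edgeR adjusted p = 0.000439 for *Vcl*, 0.0362 for *Myl9* and 0.0173 for *Acta2*, and 0.194 for *Tpm1*, which missed the threshold. The joint call of *Vcl* and of *Acta2* held in all 47 alternatives. Leaving out replicate 1 of every condition ended that of *Myl9* (edgeR adjusted p = 0.0594) and *Tpm1* (0.214), and that of *Cnn2* was lost in 10 of 47 alternatives. For *Srf* the joint adjusted p was 0.396 and for *Ankrd1* 0.171.

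The other genes of the pathway were taken from 8 lists of 74 genes without the members, of which 72 were tested. Over the 5 times in NT 52 were called (50.0% of all genes). Of the 72, 30 had risen at 1 h (9.22% of all genes), 45 at 2 h (13.0%), 33 at 4 h (16.3%), 7 at 8 h (11.8%) and 4 at 24 h (6.61%), while 20 had fallen at 24 h (9.71%). Their median log2 change was 0.39, 0.79, 0.53, 0.02 and -0.21 in the order of the times. Of the SRF cofactors only *Elk4*, a ternary complex factor, was called in NT, with a log2 change of 0.66 ± 0.055 at 2 h (edgeR joint adjusted p = 4.3e-13). The MRTF genes *Mkl1* and *Mkl2* were furthest from 0 h at 0.25 ± 0.049 (8 h) and -0.29 ± 0.059 (4 h) on the log2 scale, neither called, and *Myocd* had too few counts to be tested.

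The early targets of the ternary complex factor branch were the list with the highest median at 1 h. All 8 had risen at 1 h, with a median log2 change of 3.81, and all 8 at 2 h. *Fosb*, an AP-1 subunit, had 3.77 ± 0.350 CPM (mean ± SD, n = 3) in NT at 0 h and 763 ± 32.2 after 1 h. The zinc finger factor *Egr3* had 15.3 ± 1.001 and 902 ± 49.8 CPM at the same times, and *Egr2* had 9.09 ± 0.419 and 263 ± 5.70. At 24 h 3 of the 8 were lower and 1 was higher, *Junb* at 1.28 ± 0.061 on the log2 scale, named after its values were seen. *Egr3* was then at 2.64 ± 0.0648 CPM.

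Of the 4 other actins tested, 3 rose at 1 h and 2 h, 4 at 4 h, and 2 fell at 24 h. *Acta1*, skeletal α-actin, had 2.93 ± 0.282 CPM at 0 h, 16.3 ± 2.43 at 4 h and 0.653 ± 0.238 at 24 h. *Actg2*, enteric γ-actin, peaked at 4 h at 66.8 ± 6.74 CPM and was at 10.1 ± 0.807 at 24 h, and the cytoplasmic *Actg1* rose by 1.15 ± 0.037 on the log2 scale at 2 h. These actins are close in sequence, so reads may be shared among them and with *Acta2*. Of 9 other thin-filament genes, 5 rose at 2 h and 5 fell at 24 h. *Lmod1*, a nucleator of actin filaments, rose by 1.62 ± 0.084 and then fell by 1.95 at 24 h on the log2 scale. *Tagln2*, in contrast, was still higher at 24 h (0.74 ± 0.046), and *Tagln3* was lower at 24 h (-1.20 ± 0.19).

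Of 12 genes for myosin II and its control, 7 rose at 2 h and 3 fell at 24 h. *Rhob*, a small GTPase, rose by 1.49 ± 0.045 at 1 h, *Ppp1r12a*, the targeting subunit of myosin phosphatase, by 1.30 ± 0.042 at 2 h, and *Mylk*, the kinase for the light chain, was -0.94 ± 0.085 at 24 h, all log2 changes. Of 14 crosslinkers and adhesion proteins, 9 rose at 2 h and 3 fell at 24 h. The LIM proteins *Csrp1* and *Csrp2* rose by 1.68 ± 0.044 at 4 h and 1.48 ± 0.056 at 2 h, and *Filip1l* by 1.51 ± 0.044 at 1 h. In the YAP and TEAD list 5 of 10 rose at 2 h and 2 fell at 24 h. Its matricellular targets *Ctgf* and *Cyr61* rose by 3.18 ± 0.049 at 2 h and 2.83 ± 0.052 at 1 h, and *Tead1* by 1.18 ± 0.053 at 4 h.

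TGF-β is a known inducer of contractile genes in fibroblasts. Of 10 ligands, receptors and targets, 7 rose at 2 h, 2 were higher at 24 h and 2 lower. *Tgfb2*, a ligand, rose by 2.50 ± 0.060 and *Skil*, a repressor of SMAD, by 2.56 ± 0.060 at 2 h on the log2 scale.

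Between the siRNA groups 6 of the 72 list genes were called (5.19% of all genes), all with lower levels in IFT88siRNA where the fold was passed. They were *Egr1* (-0.61 ± 0.091 at 4 h), *Fos* (-0.59 ± 0.10 at 4 h), *Egr2* (-0.59 ± 0.11 at 8 h), *Actg2* (-0.62 ± 0.11 at 1 h), *Tagln3* (-1.02 ± 0.26 at 4 h) and *Myh11* (-0.90 ± 0.23 at 4 h), as log2 differences at the time of the largest gap. *Myh11*, which falls under the minimum of 50 reads for naming and was named after its values were seen, averaged 26.3 reads per library, and *Tagln3* averaged 55.1. For a different response to IL-1β 2 list genes were called, among them *Egr3* (1.20% of all genes), and 25 had an adjusted p under 0.05 with no fold required (5.53%).

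**Figure D5:**
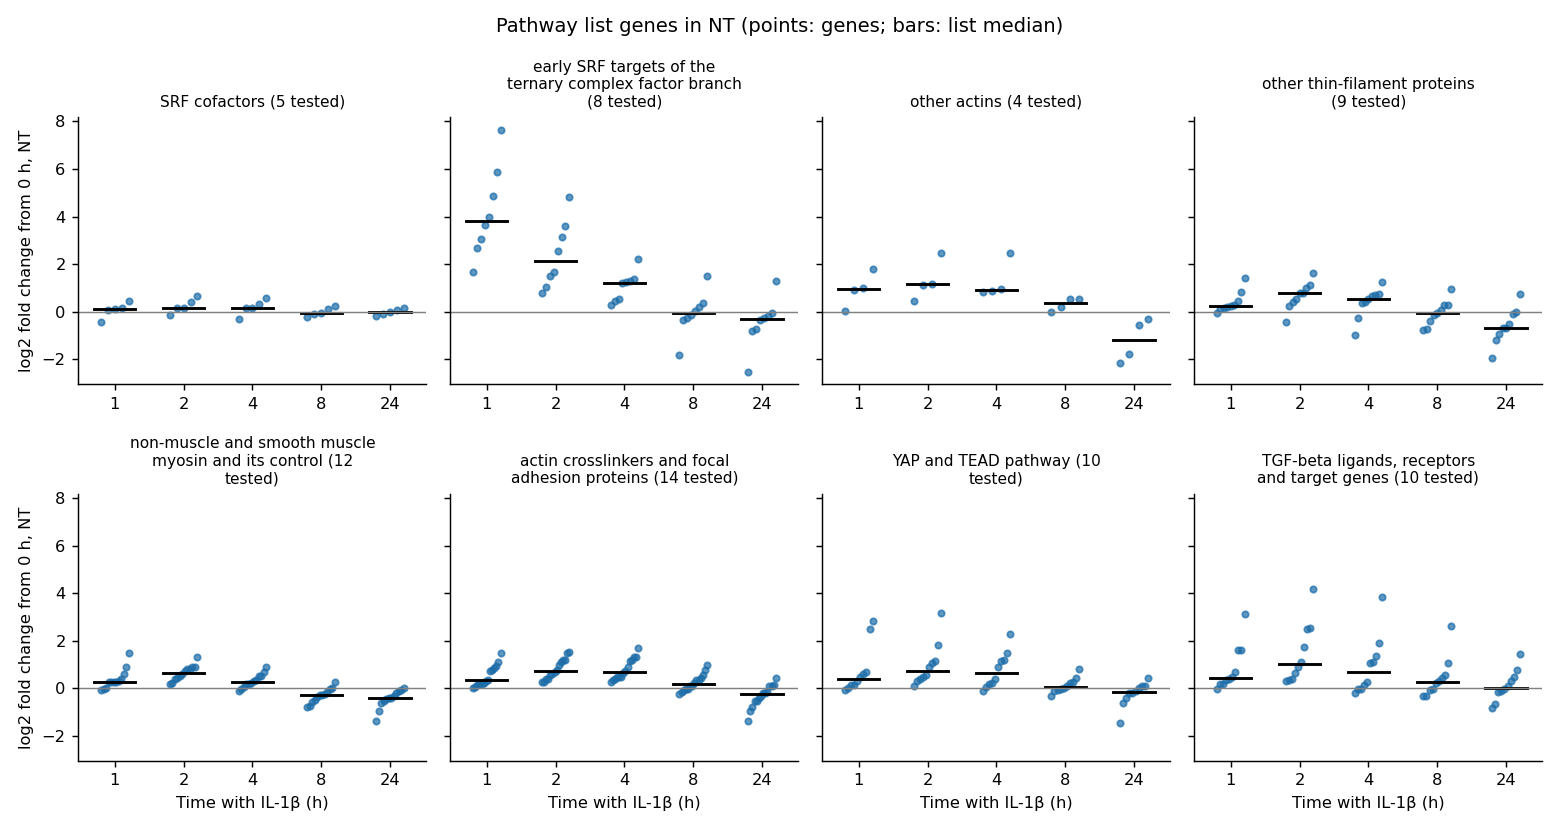
Log2 fold change from 0 h in NT at each time with IL-1β (h) for the tested genes of 8 pathway lists, 1 point per gene and a bar at the list median. The early SRF targets have their highest points at 1 h, and the medians of the actin lists pass below 0 at 24 h.

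The shapes of the time courses were compared as Pearson's r over the 12 condition means of log2 CPM. The 12 points share a scaling and hold the same 6 times in both siRNA groups, so r is a description. *Acta2*, *Cnn1*, *Cnn2*, *Myl9* and *Tpm1* lay close together, with r from 0.894 to 0.985 for each pair. *Cnn1* and *Tpm1* were the closest pair of members (r = 0.985), and *Tagln* was nearest to *Acta2* (0.947). *Srf* and *Ankrd1* stood apart from the filament genes but near each other (0.888), and the lowest r was 0.375, between *Tagln* and *Ankrd1*. Among 16709 genes the 3 most like *Acta2* were *Tmsb4x* (0.988), which encodes the actin-sequestering peptide thymosin β4, *Col6a2* and *Penk*. The 3 most like *Cnn1* were *Acta1* (0.995), *Csrp2* and *Lcp1*, and those most like *Tagln* were *Slco1a5*, *Tpm2* (0.988) and *Abcg2*.

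Those nearest to *Vcl* were *Myh9* (0.9898), the heavy chain of non-muscle myosin IIA, *Msrb3* and *Phldb1*. For *Ankrd1* they were *Maff* (0.983), *Junb* and *Tyw5*, and for *Srf* they were *Sertad2* (0.9903), *Sqstm1* and *Atp6ap2*. *Tpm1* was nearest to *Abracl* (0.996), *Traf5* and *Hspb1*, *Cnn2* to *Anxa6* (0.992), *Cavin1* and *Plcd1*, and *Myl9* to *Itgbl1* (0.9897), *Krt15* and *Cd59a*.

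Calls close to the fold threshold changed when single libraries were left out. In NT the call of *Tpm1* at 24 h was lost when any 1 library of 2 h or 4 h was left out (log2 change -0.58, edgeR adjusted p at most 2.35e-11). Those libraries are not part of the contrast of 24 h with 0 h. The value was -0.58 in each of these fits, -0.61 with all libraries and -0.57 with no filter on low counts, so no single library accounts for the lost call. The call of *Ankrd1* at 8 h was lost without replicate 1 of 8 h (0.57, edgeR adjusted p = 0.00035). *Vcl* at 1 h gained a call without replicate 2 of 0 h or of 1 h (0.61 in both), *Myl9* at 1 h without replicate 2 of 1 h (0.61), and *Cnn2* at 4 h without replicate 3 of 0 h (0.60). In IFT88siRNA *Cnn2* at 4 h gained a call without replicate 2 or 3 of 0 h or replicate 3 of 4 h (0.59 to 0.61). No direction changed in any of these.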

How the data were processed

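Poly(A) RNA of 36 libraries was sequenced in paired reads. The deposited counts per gene were made by the authors with HISAT2 2.1.0 on GRCm38 and featureCounts of Subread 1.6.3, at its default settings, which count whole reads without regard to strand. The TPM values were made by the authors with Salmon 0.9.1. Groups were taken from the sample labels, and nothing states that replicates were separate cultures, so p-values measure only the spread between these samples. The lane of each library is not given in the sources used here.

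Counts were tested across all genes that passed filterByExpr with edgeR 4.0.16 (TMM, quasi-likelihood F-test, R 4.3.3) and Benjamini-Hochberg adjustment. The 18 libraries of 1 siRNA group were fitted together over time, the 6 libraries of 1 time for the siRNA effect, and all 36 for the joint siRNA and response tests. A call needed an adjusted p under 0.05 and a fold over 1.5. SE is the log2 change over the square root of F. Alternatives were DESeq2 1.42.0, limma 3.58.1 on log2(TPM + 1) with at least 1 TPM in 3 libraries, a pseudocount of 0.1, DESeq2's size factors and upper-quartile scaling, no filter on low counts, the replicate block, and leaving out replicates. Fits were tested on simulated data. The members, the 8 pathway lists and the marker lists were chosen with earlier results of these data known. In each list the text names up to 3 called genes with the largest change and a mean of at least 50 reads, and for each member the 3 genes with the highest r. A gene that this rule names is not reported here. Promoters came from RefSeq (GRCm38.p6) and gene positions from the GENCODE annotation of GRCm38. The members had 91 to 109811 reads per library, in libraries of 19337022 to 38304127 reads on genes, and the SE carries the spread between replicates at that depth.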

Additional observations from a re-analysis of the deposited data

Results flagged for a closer look

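Each result here was picked because the IL-1β response differed between the siRNA groups over 5 times together (edgeR adjusted p under 0.05, no fold required). For *Vcl* the log2 difference in response was -0.36 ± 0.061 at 1 h, with a joint adjusted p of 3.98e-05 and at most 0.0237 over 47 alternatives. *Myl9* had -0.35 ± 0.094 at 1 h, with a joint adjusted p of 0.000143 that reached 0.0594 without replicate 1 of every condition. *Acta2* had 0.39 ± 0.084 at 24 h (joint edgeR adjusted p = 0.000197, at most 0.0292 over the alternatives). *Tpm1* had 0.21 ± 0.063 at 24 h (joint edgeR adjusted p = 0.00163, and 0.214 without replicate 1). *Cnn2* had -0.16 ± 0.064 at 1 h (joint edgeR adjusted p = 0.0288, up to 0.470 over the alternatives and above 0.05 in 10 of 47). None of these differences reached 1.5-fold.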

How the results depend on the processing

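Of 3582 values of the members under 48 settings, 3475 kept their direction and side of the threshold, 60 changed sign without being called in either fit, 30 lost a call, 17 gained one and 0 reversed. All 9 members stayed called over time in both siRNA groups under each alternative. With no fold threshold, 8 members differed between the siRNA groups over 6 times together, 5 differed in response, the calls at single times came to 18, and 54 list genes differed. With log2(TPM + 1) and limma, with or without a filter, the member counts between siRNA groups were 0 jointly and 0 at single times, and 3 list genes were called without a filter. With no filter on low counts 1 member, *Ankrd1*, was called for response (edgeR adjusted p = 0.0138) and 3 list genes differed between siRNA groups. Leaving out replicates gave 0 to 1 members jointly, 0 to 1 calls at single times and 0 to 7 list genes. The 1 member called jointly was lost without replicate 1, without replicate 3 and without replicate 3 of NT at 0 h, and the list count fell to 0 without replicate 1, to 3 without replicate 1 or 3 of NT at 4 h and to 2 without replicate 1 of IFT88siRNA at 4 h. With upper-quartile scaling the median log2 change of all genes was as low as -0.14 (NT, 4 h), against -0.02 there with TMM.

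Same-numbered libraries of both siRNA groups at the same time did not deviate together (r from -0.13 to 0.22 over 18 pairs, 5 of them closest to their own number). A link between same-numbered libraries of different times was not tested. With the replicate block 9 members in NT, 9 in IFT88siRNA, 1 between siRNA groups and 0 for response were called, with 30, 29 and 1 calls at single times and 52 and 6 list genes. The joint siRNA test of *Cnn1* had an adjusted p of 0.0197 with the block and 0.0978 without it, and it missed the threshold in 41 of 47 alternatives. *Ankrd1*, *Tagln* and *Cnn1* had the fewest reads, at means of 302, 389.9 and 437 per library. The count of *Tagln* was low beside its mean of 429 TPM, as *Myl9* averaged 308 TPM with 4148 reads.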
